A study of Homo sapiens with 12 samples.

Results

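The response to the SHP2 inhibitor compound #57 was compared between MHCC97H cells and the other 2 human hepatocellular carcinoma (HCC) cell lines of the study, Hep3B and Huh7. For each gene, the log2-fold change with compound #57 in MHCC97H was taken, and the mean of the changes in Hep3B and Huh7 was subtracted from it. This difference of responses rests on 6 of the 12 libraries and was computed for all 11548 genes of the table. Of these, 9709 genes had at least 50 reads in the higher of the untreated and the treated library of every cell line. Among them, 225 genes responded in MHCC97H at least 2-fold differently from both Hep3B and Huh7, 101 of them higher in MHCC97H and 124 lower.

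The study asked how HCC cells respond to inhibition of mTOR and of SHP2, alone and together. Cells labelled WT were left untreated, or were given AZD8055, an inhibitor of the mTOR kinase at 100 nM, compound #57, an allosteric inhibitor of SHP2, or the combination, with 1 library for each cell line and treatment. MHCC97H cells were collected after 24 h, and Hep3B and Huh7 cells after 48 h. Exposure time and cell line therefore cannot be told apart in any comparison given here. The dose of compound #57 given alone for sequencing and a vehicle for the untreated cells are not given in the sources used here. Each cell line stands for 1 tumour, and no value has a replicate.

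SHP2, encoded by PTPN11, is a phosphatase that carries signals from receptor tyrosine kinases (RTK) to RAS, and from there through RAF and MEK to the kinase ERK. ERK switches on early transcription factors such as EGR1 and the ETV family, and also its own brakes, the DUSP phosphatases and the SPRY proteins. The transcripts of these genes are widely used as a readout of ERK activity. A separate program relevant to liver cells is run by the SREBP transcription factors, which switch on cholesterol and fatty acid synthesis and respond to sterol levels and to growth signals.

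The libraries held between 10667343 and 15968317 reads, and levels are given below as reads per 10000000 reads. A log2-fold change here is a difference between the log2 levels of a pair of libraries after 1 was added to each level, so that changes of genes at low levels come out too small. A value of 1 stands for a doubling. The labelled cell type was checked against 12 hepatocyte markers. The keratins KRT8 and KRT18 and the liver transcription factor HNF4A were found in every untreated line, with HNF4A at 595 in MHCC97H against 2077 in Hep3B and 3023 in Huh7. The secreted liver proteins were far lower in MHCC97H. ALB stood at 303 in untreated MHCC97H, 210935 in Hep3B and 40721 in Huh7, and APOA1 at 3.84, 2382 and 4953. The minimum of 50 reads was missed by 1839 genes in at least 1 cell line, by 1189 in MHCC97H, 436 in Hep3B and 646 in Huh7, and by 911 in MHCC97H alone. For these genes the difference of responses is not described. Of 15 markers of blood, endothelial, stromal and bile duct cells, 5 were analysed. The endothelial marker PECAM1 stood at 285 in untreated MHCC97H, 9.37 in Hep3B and 55.7 in Huh7. LYZ, a marker of the same list, went the other way, nearly absent in untreated MHCC97H and far higher in Hep3B and Huh7, with values given at the end. The part of such cells in the results was not tested.

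Transcription responded less to compound #57 in MHCC97H than in either other line. Of the 9709 genes, 154 were at least 2-fold higher (1.59%) and 31 at least 2-fold lower (0.319%) in MHCC97H. In Hep3B these numbers were 570 (5.87%) and 322 (3.32%), and in Huh7 255 (2.63%) and 105 (1.08%). Over these genes, the log2-fold changes had an SD of 0.34 in MHCC97H against 0.65 in Hep3B and 0.44 in Huh7. Across the genes, the changes in Hep3B and Huh7 had a Pearson's r of 0.729, against 0.395 for MHCC97H with Hep3B and 0.371 for MHCC97H with Huh7. These correlations describe 9709 genes of the same 6 libraries, and genes are not independent replicates. PTPN11 itself, at chr12:112418351-112509918 of hg38, hardly moved in these libraries. Its level was 4379 untreated and 4409.9 with compound #57 in MHCC97H, 2853 and 3069 in Hep3B, and 4412 and 4556 in Huh7, a difference of responses of -0.07. An inhibitor of the protein need not change its transcript, so that this value does not check the labels.

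The difference of responses was tested in limma on all 12 libraries with cell line, treatment and a separate treatment effect for MHCC97H as terms. The spread in this test is how far Hep3B and Huh7 differ in their responses, with 3 residual degrees of freedom, and MHCC97H is assumed to vary like them. At a Benjamini-Hochberg adjusted p-value under 0.05, limma called 0 of 11548 genes (0%). At an unadjusted p-value under 0.05 it found 896 genes, 500 higher in MHCC97H and 396 lower, and voom weights on the whole reads gave 812 and again no call. With libraries centred on their medians, limma found 398 higher and 453 lower at this unadjusted limit, so that the larger side turned. In the main fit, the smallest adjusted p-value in limma was 0.132, for PHLDA1. No single gene is therefore shown to respond differently beyond the spread between cell lines, and the genes below are described by their values in these libraries.

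The 225 genes were chosen by size alone, as those whose log2-fold change in MHCC97H differed by at least 1 in the same direction from that in Hep3B and from that in Huh7. The 101 genes higher in MHCC97H made up 1.04% of the genes with enough reads, and the 124 lower genes 1.28%. Just inside the limit stood EPAS1 on the higher and LINC00261 on the lower side, with smaller differences of 1.0002 and -1.0011, and just outside it CPLX1 with 0.9982 and VIM with -0.9996. Of the 225 genes, 56 (24.9%) had under 50 reads in 1 library of at least 1 line and met the minimum there through the other library, where they were higher, against 496 (5.11%) of all 9709 genes. Among the genes described below with values, these are ASS1, CYP1A1, IGFBP3, OLFML3, ORM1 and SLC22A15 in MHCC97H, C8orf4, COL6A1, DUSP5, EGR1, ETV5, LFNG, LOXL2, LPXN, NTN4, SLC22A15, SPRY1 and SPRY4 in Hep3B, and AREG, EGR1, ITGA3, LFNG, LPXN, PDGFA, SLC22A15 and TAP1 in Huh7. With MHCC97H within 2-fold of its untreated level, both other lines were past 2-fold in 40 of the 101 higher and 51 of the 124 lower genes. Of the 101 higher genes, 84 were lower with compound #57 in both other lines, and 80 were within 2-fold of the untreated level in MHCC97H. Their median log2-fold change was 0.48 in MHCC97H against -1.03 in Hep3B and -0.87 in Huh7. Of the 124 lower genes, 122 were higher with compound #57 in both other lines, and 108 were within 2-fold in MHCC97H. Their medians were -0.40, 1.25 and 1.01 in the same order. A change of the opposite sign in MHCC97H and in both other lines was found for 62 of the higher and 97 of the lower genes. Of all 9709 genes, 5076 were lower with compound #57 in Hep3B and 4808 in Huh7. Over all genes, MHCC97H had the smallest SD of the changes, 0.34 against 0.65 and 0.44. The counts and medians of the 225 genes come from the values that chose them, so that they describe the choice and test nothing. Fewer of the chosen genes changed at least 2-fold in MHCC97H itself. At least 2-fold higher in MHCC97H were 20 of the 101 genes, 16 of them with both other lines within 2-fold, and at least 2-fold lower were 13 of the 124 genes, 5 of them with both other lines within 2-fold. Of all 9709 genes, 1.59% were at least 2-fold higher and 0.319% at least 2-fold lower in MHCC97H. Such changes were thus more frequent among the chosen genes, which the choice itself favours.

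**Figure D1:**
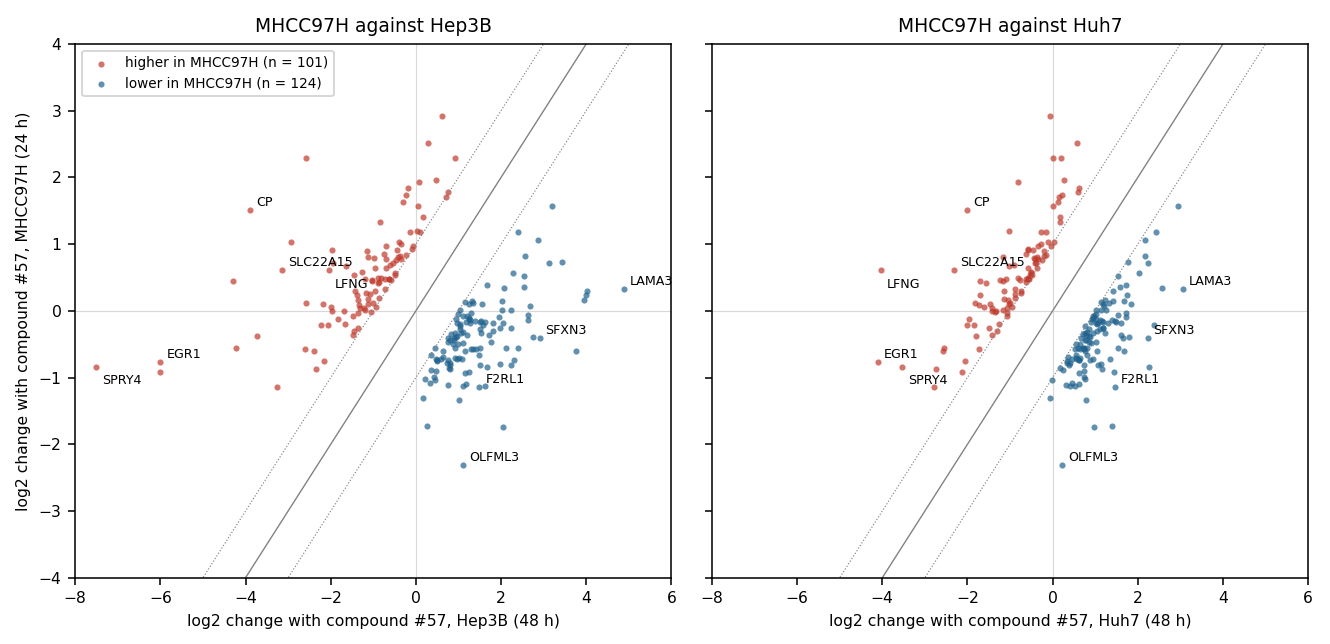
Log2-fold change with compound #57 in MHCC97H (vertical axis, 24 h) against that in Hep3B (left) and Huh7 (right, both 48 h) for the 101 genes higher in MHCC97H (red) and the 124 lower (blue), 1 point per gene. The solid line marks equal change and the dotted lines a 2-fold difference, which chose the genes. The points spread further along the horizontal than along the vertical axis, with medians of -1.03 in Hep3B and 0.48 in MHCC97H for the red genes. The changes of all 9709 genes also had a larger SD in Hep3B (0.65) and Huh7 (0.44) than in MHCC97H (0.34).

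By their median, targets of ERK were lower with compound #57 in all 3 lines, and least so in MHCC97H. A list of 26 ERK targets was written from general knowledge, of which 23 were analysed and 21 had enough reads. The median log2-fold change of these 21 genes was -0.75 in MHCC97H against -2.16 in Hep3B and -1.37 in Huh7 cells. The median difference of responses was 1.35, against 0.11 over all 9709 genes. It was 0.46 with Huh7 alone as the reference and 1.68 with Hep3B alone. MHCC97H was above both other lines in 14 of the 21 genes and below both in 3 (66.7% and 14.3%), against 48.7% and 26.4% of all 9709 genes. In limma, 7 of the 21 reached an unadjusted p-value under 0.05 with a higher and 2 with a lower difference, against 4.25% and 2.68% of all 9709 genes, and none did after adjustment. Past the 2-fold limit were 7 genes higher in MHCC97H, namely EGR1, SPRY1, SPRY2, SPRY4, DUSP5, ETV5 and MYC, and 1 lower, PHLDA1, against 1.04% and 1.28% of all genes.

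Among the ERK-induced transcription factors, EGR1, at chr5:138465479-138469303 of hg38, differed most. Its level was 1420.3 in untreated MHCC97H and 839 with compound #57. In Hep3B it was 798 and 11.5, and in Huh7 181 and 9.58. The treated levels of the other 2 lines thus lay far under that of MHCC97H, and the log2-fold changes were -0.76, -5.996 and -4.10. The 95% Clopper-Pearson interval of the change, which covers counting error only, was -0.87 to -0.65 in MHCC97H and -5.17 to -3.44 in Huh7. The difference of responses was 4.29 with a limma SE of 1.35, and its adjusted p-value in limma was 0.544. ETV5, of the ETS family, had 869 and 458 in MHCC97H, 474 and 6.4 in Hep3B and 1244 and 282 in Huh7. Its relative ETV4 was lower with compound #57 in every line, by a log2-fold change of -1.86 in MHCC97H against -5.33 in Hep3B and -2.57 in Huh7. For ETV4, MHCC97H and Huh7 were within 2-fold of each other in their response. MYC, which codes for a growth-promoting transcription factor, kept its level in MHCC97H, with 2076 untreated and 2075 treated. In Hep3B it went from 1713 to 532 and in Huh7 from 817 to 303. When compound #57 was added to AZD8055, MYC went from 2305 to 1766 in MHCC97H. Its difference of responses was 1.56 with compound #57 alone and 0.39 with AZD8055 present.

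The SPRY genes, feedback inhibitors of the pathway, were lower with compound #57 in every line, and least so in MHCC97H. SPRY4, which blocks RAS activation, stood at 343 and 191 in MHCC97H, 529.7 and 1.92 in Hep3B, and 764 and 64.9 in Huh7. Its treated level in Hep3B came from 3 reads, and the counting interval of its change there was -10.39 to -6.55. Its difference of responses was 4.68 (limma SE 1.68, adjusted p-value 0.578). SPRY1 had log2-fold changes of -0.56 in MHCC97H against -4.23 in Hep3B and -2.55 in Huh7, and SPRY2 of -0.75, -2.16 and -2.05. For SPRY2 the other 2 lines were close to each other, and both were lower than MHCC97H. Of the phosphatases, DUSP5 changed by -0.60 in MHCC97H, -2.40 in Hep3B and -2.57 in Huh7. DUSP6, which removes the activating phosphates of ERK in the cytoplasm, stood at 1766 and 537 in MHCC97H, 923 and 11.5 in Hep3B, and 1419.7 and 318 in Huh7. Its log2-fold change was -1.72 in MHCC97H and -2.16 in Huh7, a smaller gap than that to Hep3B with -6.21.

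Other members of the list did not follow this order. EPHA2, a receptor of ephrins, had nearly the same log2-fold change in every line, -1.15 in MHCC97H, -1.20 in Hep3B and -1.14 in Huh7. Its difference of responses was 0.02, with a 95% interval in limma of -1.02 to 1.06. CCND1, the cyclin of the G1 phase, had -0.15, -0.65 and 0.11 in the same order, and a difference of 0.12 that was -0.26 against Huh7 alone. PHLDA1, at chr12:76025447-76031776, went the opposite way, with the smallest limma p-value of all genes. Its level was 4109.7 untreated and 2179 treated in MHCC97H, against 1146 and 2735 in Hep3B and 714 and 1949 in Huh7. It was thus lower with compound #57 in MHCC97H and higher in both other lines, a difference of -2.27 (95% interval in limma -2.78 to -1.75, adjusted p-value 0.132). DUSP4, a phosphatase of the nucleus, had a log2-fold change of -0.80 in MHCC97H against 0.98 in Hep3B and 0.08 in Huh7. The zinc finger factor KLF6 was near its untreated level in MHCC97H at 0.05 and higher in Hep3B at 1.33 and Huh7 at 1.02.

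**Figure D2:**
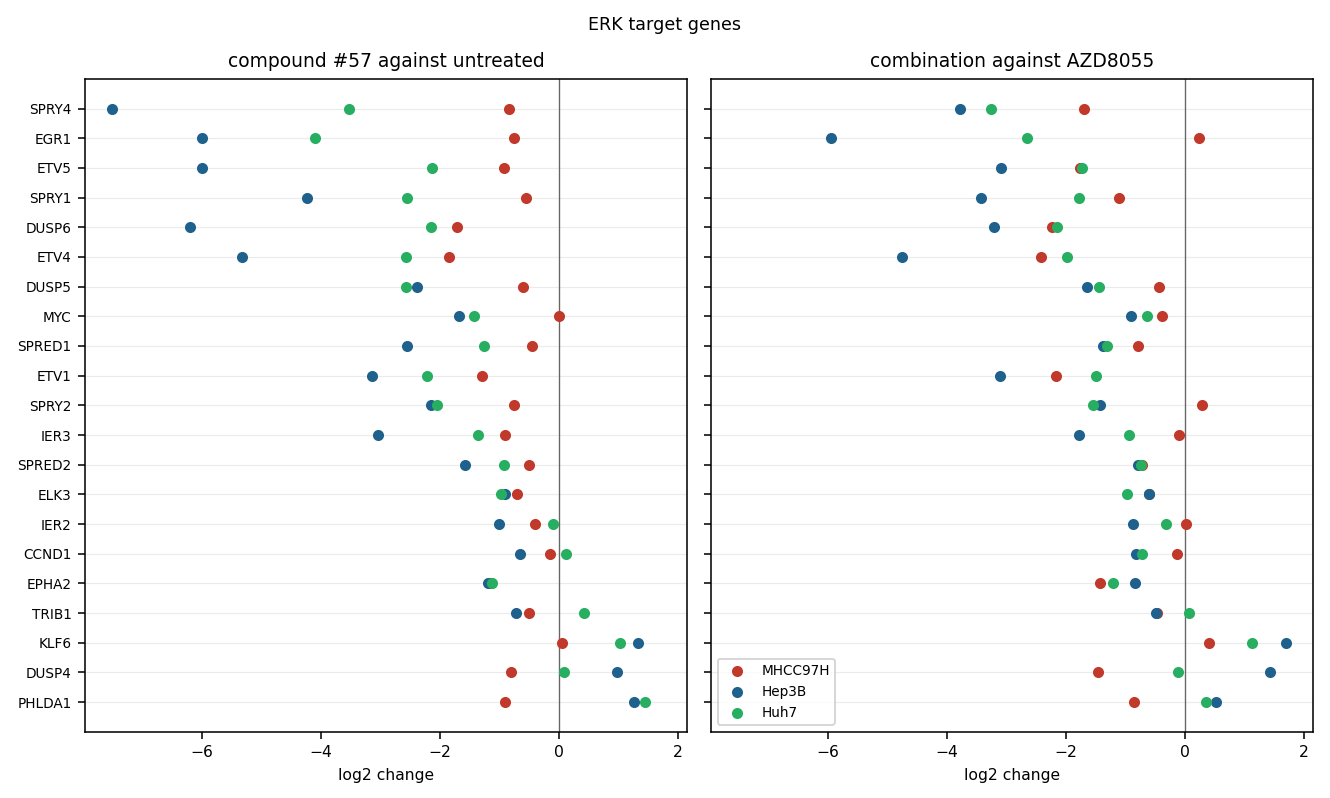
Log2-fold change (horizontal axis) of 21 ERK targets with compound #57 alone (left) and with compound #57 added to AZD8055 (right), 1 point per gene and cell line (red, MHCC97H; blue, Hep3B; green, Huh7). With compound #57 alone, the red point lies to the right of both others in 14 genes and to the left of both in 3.

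The genes of the SHP2 and RAS module themselves, from adaptors to kinases, gave no such pattern by their median. All 24 listed genes had enough reads, with medians of 0.08, 0.07 and 0.06 in MHCC97H, Hep3B and Huh7 and a median difference of 0.07. None was past the 2-fold limit, against 1.04% higher and 1.28% lower of all genes. In limma, 0 of the 24 had an unadjusted p-value under 0.05, against 4.25% higher and 2.68% lower of all genes. For a list of 24 genes, counts of 0 lie near these shares. Of 43 listed RTK, 19 were analysed and 13 had enough reads, with a median difference of 0.13 (-0.13 with Hep3B alone as the reference). ERBB3, a receptor of neuregulins, was past the limit on the higher side, with a log2-fold change of 1.19 in MHCC97H against -0.15 in Hep3B and -0.28 in Huh7. EGFR and MERTK were past it on the lower side. This made 1 higher and 2 lower of 13 genes, against 1.04% and 1.28% of all 9709 genes. EGFR stood at 2642 and 1786 in MHCC97H, 1882 and 4601 in Hep3B, and 3513 and 5088 in Huh7. Of 23 listed growth factors, 6 had enough reads. Their median difference was -0.56, and -0.18 with AZD8055 present. MHCC97H was below both other lines in 4 and above both in 1 of them (66.7% and 16.7%, against 26.4% and 48.7% of all genes). Past the 2-fold limit were 0 higher and 2 lower of the 6, against 1.04% and 1.28% of all genes. AREG, a ligand of EGFR, was lower with compound #57 in MHCC97H (183 and 102) and higher in Hep3B (84.4 and 269) and in Huh7 (11.3 and 57.5). In Huh7 it had 18 reads untreated and 78 with compound #57, and met the minimum through the latter. The difference of responses of AREG was -2.80, and that of PDGFA, a ligand of the PDGF receptors, was -1.98.

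The largest difference by the ranking of the named genes, which takes the nearer of the other 2 lines, was that of CP. CP codes for ceruloplasmin, the copper-carrying ferroxidase that the liver secretes, and lies at chr3:149162410-149221829. Its level was 683 in untreated MHCC97H and 1945 with compound #57, higher by 1.51 on the log2 scale (counting interval 1.40 to 1.62). In Hep3B it was 1419 and 94.7, and in Huh7 2106 and 523, lower in both. The treated level of MHCC97H thus exceeded those of the other lines, whereas its untreated level was the lowest of the 3. The difference of responses was 4.46 with a limma SE of 1.18 and an adjusted p-value of 0.475.

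Several other genes of liver function were higher in MHCC97H with compound #57 and within 2-fold of their untreated level in the other lines. SEPP1, the older symbol of the selenium carrier selenoprotein P, stood at 38.4 and 297 in MHCC97H, 3564 and 5478 in Hep3B, and 14290.2 and 13667 in Huh7. Even after treatment, its level in MHCC97H stayed far under that of both other lines. ASS1, an enzyme of the urea cycle, had 17.7 and 106 in MHCC97H, 666 and 811 in Hep3B, and 544 and 811 in Huh7. Both genes had few reads in untreated MHCC97H, 50 for SEPP1 and 23 for ASS1, and ASS1 reached the minimum through the treated library. ORM1, an acute-phase plasma protein, changed by 1.93, 0.08 and -0.81 in MHCC97H, Hep3B and Huh7. It had 14 reads in untreated and 50 in treated MHCC97H, so that it reached the minimum only in the treated library, and its change in MHCC97H was 0.38 in the presence of AZD8055. The hepatokine FGL1 changed by 1.84, -0.19 and 0.62 in the same order. CYP1A1, a detoxifying enzyme induced through the aryl hydrocarbon receptor, changed by 2.29, 0.92 and 0.01 and had 33 reads in untreated MHCC97H. These genes do not stand for liver genes at large. Of 42 listed plasma proteins of the liver, 15 had enough reads, and their median log2-fold change was 0.36 in MHCC97H against 0.92 in Hep3B and 0.74 in Huh7. MHCC97H was above both other lines in 7 and below both in 3 of them (46.7% and 20%), close to the shares of 48.7% and 26.4% over all genes, and 0 were past the 2-fold limit. Taken per gene, the median difference of responses was 0.15, against 0.11 over all 9709 genes. With AZD8055 present it was 0.29, against 0.02 over all genes. Within this list, F5, a clotting factor, had a difference of 1.51 and AMBP, a plasma protease inhibitor precursor, of -1.09. A separate list of 25 acute-phase genes had 10 with enough reads and a median difference of -0.24 (0.11 as a mean). MHCC97H was above both other lines in 2 and below both in 5 of these 10. Past the 2-fold limit were 2 higher and 0 lower of the 10, against 1.04% and 1.28% of all genes. With AZD8055 present, the median difference of the acute-phase list was 0.36, of opposite sign. MHCC97H was then above both other lines in 5 and below both in 2 of the 10, against 35.0% and 28.8% of all genes.

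The remaining genes among the first 10 of the higher side were of mixed function. LFNG, a glycosyltransferase that modifies Notch receptors, stood at 46.8 and 71.9 in MHCC97H, 66.6 and 15.4 in Hep3B, and 124 and 6.63 in Huh7. SLC22A15, a membrane transporter, had 28.4 and 43.9, 232 and 25.6, and 95.2 and 18.4 in the same order. Both were much lower in the other lines, with differences of 3.65 and 3.33. In MHCC97H, SLC22A15 had 37 reads untreated and 50 with compound #57, and the counting interval of its change there, -0.02 to 1.28, included 0, while that of LFNG was 0.12 to 1.12. IGFBP3, which binds insulin-like growth factors, was higher in MHCC97H (16.1 and 82.5), lower in Hep3B (638 and 106) and hardly moved in Huh7 (86.4 and 99.5). It had 21 reads in untreated and 94 in treated MHCC97H, and met the minimum through the latter. C8orf4, the older symbol of TCIM, changed by 0.45 in MHCC97H, -4.29 in Hep3B and -1.70 in Huh7.

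By their median, genes of the matrix and of cell adhesion were lower in MHCC97H than in the other lines with compound #57. Of 48 listed genes of the extracellular matrix and the integrins, 37 were analysed and 27 had enough reads. Their median log2-fold change was -0.11 in MHCC97H against 0.28 in Hep3B and 0.39 in Huh7, and the median difference was -0.48. MHCC97H was below both other lines in 16 of the 27 genes and above both in 8 (59.3% and 29.6%), against 26.4% and 48.7% of all genes. The median difference was -0.29 with Huh7 alone and -0.78 with Hep3B alone as the reference. Past the 2-fold limit were 6 lower genes, among them LAMA3, COL6A1, ITGA3, ITGA5 and LOXL2, and 2 higher genes, among them ITGA2, against 1.28% and 1.04% of all genes. In limma, 6 of the 27 had an unadjusted p-value under 0.05 with a lower difference and 2 with a higher one, against 2.68% and 4.25% of all genes.

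LAMA3 codes for a chain of laminin-332, which anchors epithelial cells to the basement membrane. LAMA3, at chr18:23689453-23956222, stood at 1124 and 1415 in MHCC97H, 51.6 and 1559 in Hep3B, and 42.6 and 364 in Huh7. It was high in untreated MHCC97H and low in the other lines, and with compound #57 Hep3B reached the level of MHCC97H. The difference of responses was -3.65 (limma SE 0.82, adjusted p-value 0.37). COL6A1, a chain of collagen VI, had 3776 and 2272 in MHCC97H, 45.9 and 232 in Hep3B, and 269.9 and 498 in Huh7. Of the integrin receptors, ITGA3, which pairs with beta 1 to bind laminin-332, changed by -1.73, 0.26 and 1.40, and ITGA5, the fibronectin receptor chain, by -0.74, 0.76 and 0.63. On the other side, ITGA2, a collagen receptor chain, was lower in every line, by -1.14 in MHCC97H against -3.27 in Hep3B and -2.77 in Huh7.

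The promoter of LAMA3 is shown because it leads the lower genes, as an example of the letters TGANTCA. These letters are bound by AP-1, the FOS and JUN dimer at the end of the ERK cascade. The sequence runs from 250 bases before to 50 bases after the start site used in RefSeq (GRCh38.p14, chr18:23872770-23873069, plus strand, inside the gene as GENCODE draws it). Matches to TGANTCA are in capitals.

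LAMA3: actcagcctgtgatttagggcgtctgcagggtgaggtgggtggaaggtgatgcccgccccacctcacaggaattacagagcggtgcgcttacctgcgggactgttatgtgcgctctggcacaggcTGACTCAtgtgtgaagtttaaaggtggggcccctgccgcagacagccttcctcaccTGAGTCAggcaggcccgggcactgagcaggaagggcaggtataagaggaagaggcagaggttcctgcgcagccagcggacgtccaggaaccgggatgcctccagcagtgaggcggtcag

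Both strands were searched. The matches begin 125 and 69 bases before the start. Of 27305 promoters of this length in RefSeq, 7.8% held the motif, as did 4.0% of those of the genes with enough reads, and of the 95 promoters found for the 124 lower genes, 8 (8.4%) held it. Of 72 found for the 101 higher genes, 4 (5.6%) held it. Of 13 promoters found for the ERK targets, 0 held TGANTCA, and a count of 0 lies near the share of 4.0% for so few promoters. GGAAGT, the letters searched for the ETS family, was held by 3 of the 13 (23.1%), against 29.7% of the genes with enough reads. LAMA3 was higher with the inhibitor in every line, whereas the ERK targets were lower by their median. A match describes the letters and is no proof of binding, and a part of AP-1 or ERK in the response of LAMA3 was not tested.

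The remaining named genes of the lower side were also divided between MHCC97H and the other lines. SFXN3, a carrier of serine into mitochondria, stood at 302 and 228 in MHCC97H, 142 and 1069 in Hep3B, and 245 and 1155 in Huh7. F2RL1, a receptor activated by proteases, had 1258 and 569 in MHCC97H, 86.2 and 244 in Hep3B, and 55.7 and 156 in Huh7. Hep3B and Huh7 were close in both genes, and the limma SE of the differences of -2.97 and -2.63 were 0.32 and 0.30, with adjusted p-values in limma of 0.134 and 0.147. NDRG1, a gene induced by stress and by low oxygen, changed by -0.61 in MHCC97H, 3.77 in Hep3B and 1.69 in Huh7. NTN4, a secreted relative of the laminins, changed by -0.40, 2.75 and 1.79, and LPXN, a protein of focal adhesions, by -1.33, 1.02 and 0.79. The secreted protein gene OLFML3 was the lowest in MHCC97H itself, with 82.1 untreated and 15.8 with compound #57, against 499.7 and 1083 in Hep3B and 688 and 807 in Huh7. The treated level in MHCC97H rested on 18 reads.

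Further lists had a lower median in MHCC97H than in the other lines with compound #57 alone. Of 26 listed YAP and TEAD targets, 18 had enough reads, with medians of 0.29, 0.96 and 0.59 in MHCC97H, Hep3B and Huh7 and a median difference of -0.39 (-0.21 with Huh7 alone as the reference). MHCC97H was below both other lines in 10 and above both in 2 of them, against 26.4% and 48.7% of all genes. Of 28 listed genes of the epithelial and mesenchymal states, 15 had enough reads, with a median difference of -0.22, which turned to 0.04 with Huh7 alone as the reference. Here S100A10, a partner of annexin A2, and CDH2, the neuronal cadherin, had the lowest differences, -1.88 and -1.70, followed by the keratin KRT19 with -1.60. Of 49 listed genes of the interferon response and antigen presentation, 20 had enough reads. Their median was 0.32 in MHCC97H against 0.69 in Hep3B and 0.42 in Huh7, and MHCC97H was below both in 13 and above both in 3 (65.0% and 15.0%, against 26.4% and 48.7% of all genes). TAP1, a peptide transporter of antigen presentation, was past the 2-fold limit with 0.39, 1.68 and 1.72.

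By their median, genes of cholesterol synthesis and uptake were higher with compound #57 in all 3 lines, and most so in MHCC97H. All 25 listed genes had enough reads, and their median log2-fold change was 1.14 in MHCC97H against 0.62 in Hep3B and 0.51 in Huh7. The median difference of responses was 0.64, and MHCC97H was above both other lines in 23 and below both in 2 of the 25 genes, PMVK and CYP51A1, against 48.7% and 26.4% of all genes. In limma, 10 of them had an unadjusted p-value under 0.05 with a higher difference, against 4.25% of all genes, and none did after adjustment. Past the 2-fold limit were 3 genes on the higher side, among them INSIG1 and MSMO1, against 1.04% of all genes. INSIG1, at chr7:155297776-155310235, holds the SREBP precursors in the endoplasmic reticulum (ER). Its level was 356 untreated and 1388 with compound #57 in MHCC97H, 827 and 1152 in Hep3B, and 2335 and 2798 in Huh7. Untreated MHCC97H had the lowest level of the 3 lines, and its treated level lay between those of Hep3B and Huh7. MSMO1, a sterol oxidase of the pathway, stood at 652 and 2236, 1480.2 and 2511, and 4596 and 6977 in the same order.

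HMGCS1, an early enzyme of the pathway, stood at 498 and 1486 in MHCC97H, 8811 and 16874 in Hep3B, and 19769 and 33013 in Huh7. Its difference of responses was 0.74 (95% interval in limma 0.01 to 1.46, adjusted p-value 0.642). SQLE, which oxidises squalene, had log2-fold changes of 1.24, 0.30 and 0.48 in the same order. EBP, a late isomerase of the pathway, was higher to about the same degree in every line (0.84, 0.74 and 0.68). The phosphomevalonate kinase PMVK and the demethylase CYP51A1 had differences of -0.22 and -0.29. Of 14 genes of fatty acid synthesis, MHCC97H was above both other lines in 10 and below both in 3 (71.4% and 21.4%, against 48.7% and 26.4% of all genes), with a median difference of 0.24.

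**Figure D3:**
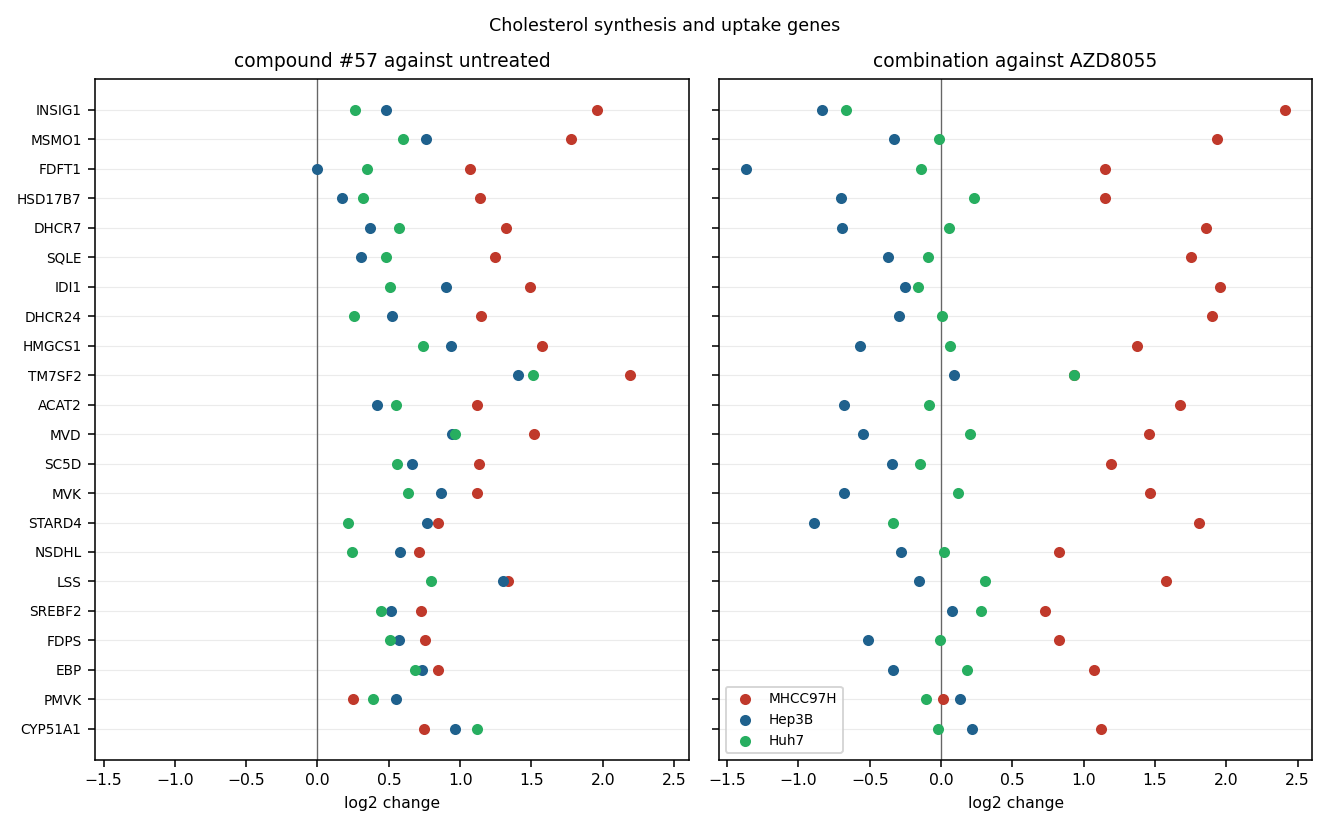
Log2-fold change (horizontal axis) of 22 of the 25 genes of cholesterol synthesis and uptake with compound #57 alone (left) and with compound #57 added to AZD8055 (right), 1 point per gene and cell line (red, MHCC97H; blue, Hep3B; green, Huh7). In both settings the red points lie to the right of both others in 20 of the 22 genes, and the medians over all 25 genes in the right panel are 1.46 in MHCC97H against -0.41 in Hep3B and -0.01 in Huh7.

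The promoters of INSIG1 and MSMO1 are shown because these genes lead the sterol list and because NF-Y, which binds the letters CCAAT, is a known partner of SREBP at sterol genes. They run from 250 bases before to 50 bases after the RefSeq start (GRCh38.p14, both on the plus strand, INSIG1 at chr7:155297628-155297927 and MSMO1 at chr4:165327419-165327718). Matches to CCAAT on either strand are in capitals, so that a match on the opposite strand reads ATTGG.

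INSIG1: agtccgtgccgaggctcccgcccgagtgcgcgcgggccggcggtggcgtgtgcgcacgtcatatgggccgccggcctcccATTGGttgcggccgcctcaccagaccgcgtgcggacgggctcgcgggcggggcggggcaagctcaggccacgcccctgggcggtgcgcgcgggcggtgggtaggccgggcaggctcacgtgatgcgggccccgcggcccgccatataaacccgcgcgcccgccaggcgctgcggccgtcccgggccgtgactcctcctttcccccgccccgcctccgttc

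MSMO1: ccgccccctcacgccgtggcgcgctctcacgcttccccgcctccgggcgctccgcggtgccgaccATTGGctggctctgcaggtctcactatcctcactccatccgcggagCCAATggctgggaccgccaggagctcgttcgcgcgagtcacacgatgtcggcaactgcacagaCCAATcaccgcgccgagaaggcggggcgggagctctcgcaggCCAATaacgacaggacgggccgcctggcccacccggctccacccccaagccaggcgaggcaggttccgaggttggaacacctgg

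INSIG1 held 1 match, 170 bases before the start, and MSMO1 held 4, at 185, 139, 76 and 34 bases before it. Of the 18 sterol genes with a promoter in the table, 15 (83.3%) held CCAAT, against 35.7% of all 27305 promoters and 37.6% of those of the genes with enough reads. The core of the sterol response element, searched as CACCCCAC, was found in 1 of the 18, against 2.7% of all promoters.

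Genes of ribosome biogenesis, many of them targets of MYC, were lower with compound #57 in all 3 lines, and least so in MHCC97H. Of 38 listed genes, 36 had enough reads. Their median log2-fold change was -0.23 in MHCC97H against -1.04 in Hep3B and -0.72 in Huh7, and MHCC97H was above both other lines in 33 and below both in 0 of them, against 48.7% and 26.4% of all genes. The median difference was 0.65, and 13 genes had an unadjusted p-value under 0.05 in limma with a higher difference (4.25% of all genes did), with 0 past the 2-fold limit. MYBBP1A, a nucleolar protein, had 2154 and 1798 in MHCC97H, 2081 and 751 in Hep3B, and 1366 and 574 in Huh7. LYAR and NOP16, further nucleolar proteins, had differences of 1.07 and 0.99. At the other end, ODC1, the first enzyme of polyamine synthesis, had 0.12. SRM, the spermidine synthase of the same route and a known MYC target, changed by -0.49 in MHCC97H against -1.13 in Hep3B and -1.09 in Huh7. The 74 ribosomal protein genes were closer together, with medians of -0.26, -0.53 and -0.28 and a median difference of 0.14 (0.01 with Huh7 alone as the reference).

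The promoter of SRM is shown as an example of the E-box CACGTG, the letters that MYC binds with its partner MAX, and the match is in capitals (RefSeq, GRCh38.p14, chr1:11059969-11060268, minus strand).

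SRM: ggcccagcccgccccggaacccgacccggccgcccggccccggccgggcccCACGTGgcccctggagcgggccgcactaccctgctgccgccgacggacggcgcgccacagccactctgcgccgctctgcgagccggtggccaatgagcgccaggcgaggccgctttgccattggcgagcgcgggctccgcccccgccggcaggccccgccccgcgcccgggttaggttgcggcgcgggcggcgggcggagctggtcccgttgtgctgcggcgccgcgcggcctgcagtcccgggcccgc

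The match begins 199 bases before the start. Of the 29 promoters found for this list, 12 (41.4%) held the E-box, against 7.4% of all 27305 promoters and 10.8% of those of the genes with enough reads. The list was chosen by function and holds many MYC targets, so that this share describes the list and not the response. Among the genes past the 2-fold limit, the E-box was found in 12 of 72 promoters of the higher genes (16.7%) and 1 of 95 of the lower genes (1.1%). In the lower genes, CCAAT (18.9% against 37.6% of the genes with enough reads) and GGAAGT (14.7% against 29.7%) were scarcer too. TGANTCA (8.4% against 4.0%) and CACCCCAC (3.2% against 2.4%) were not.

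Genes of DNA replication had a higher median in MHCC97H than in the other lines. For 40 genes of DNA replication, the medians were 0.11 in MHCC97H, -0.17 in Hep3B and -0.21 in Huh7, and MHCC97H was above both other lines in 33 genes and below both in 1 (82.5% and 2.5%, against 48.7% and 26.4% of all genes). In limma, 1 of the 40 had an unadjusted p-value under 0.05 with a higher difference, a share below the 4.25% of all genes. The largest differences were those of CDC25A, a phosphatase that opens the S phase, with 0.78, MCM10 with 0.76 and POLE2 with 0.70. For 34 genes of mitosis, the medians were -0.17, -0.65 and -0.25, and MHCC97H was above both in 21 (61.8%, against 48.7% of all genes). The median difference of the mitotic genes was 0.23, but 0.01 with Huh7 alone as the reference, and 0 of the 34 had an unadjusted p-value under 0.05 in limma. For 18 chaperones of the ER, the medians were -0.09, -0.54 and -0.42, with a median difference of 0.28 (0.44 with Hep3B alone as the reference). For 18 of 22 genes of glycolysis, they were -0.16, -0.45 and -0.71, with a median difference of 0.42. ENO2, the neuronal enolase, was past the 2-fold limit on the lower side with -1.78, while ALDOC, an aldolase, had 1.20. Lysosomal genes differed little as a group, with a median difference of 0.09 over 33 genes, but CTSL, the protease cathepsin L, was past the limit with -1.11 in MHCC97H, 0.75 in Hep3B and 0.32 in Huh7.

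**Figure D4:**
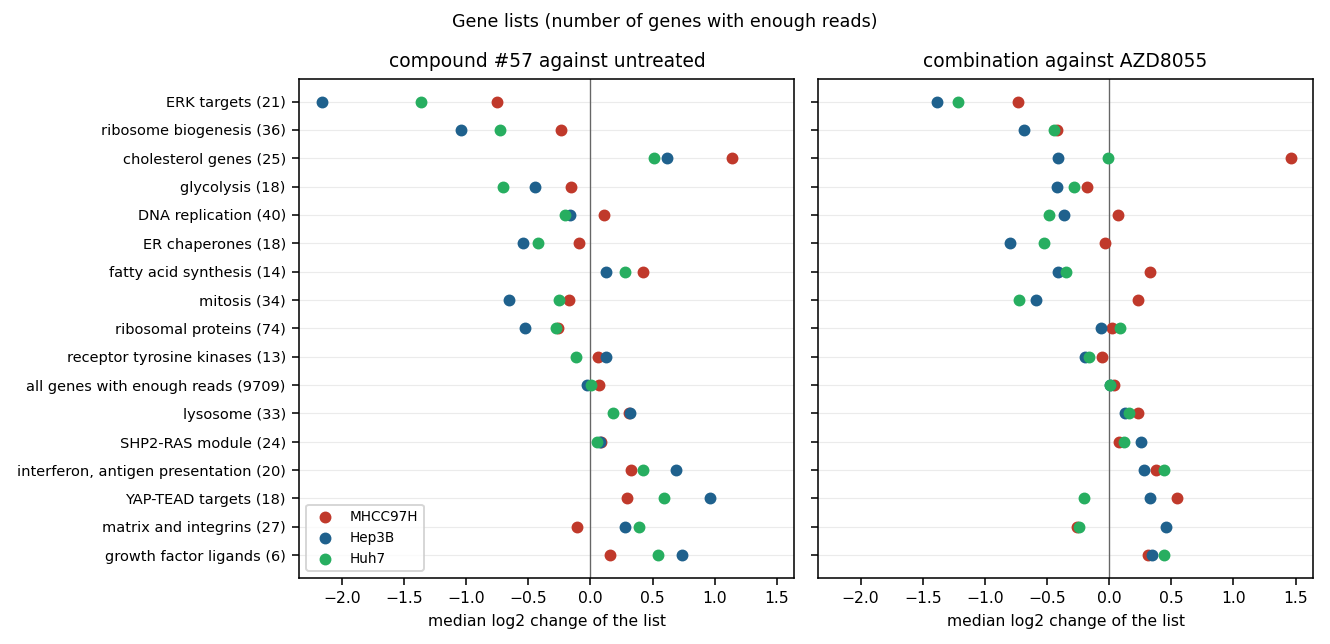
Median log2-fold change (horizontal axis) of 16 gene lists and of all 9709 genes with compound #57 alone (left) and added to AZD8055 (right), 1 point per list and cell line (red, MHCC97H; blue, Hep3B; green, Huh7), with the number of genes with enough reads in parentheses. On the left, MHCC97H lies to the right of both other lines for ERK targets, ribosome biogenesis and cholesterol genes and to the left of both for the matrix and integrin list, and on the right it lies to the right of both for cholesterol genes and mitosis.

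The 6 libraries with AZD8055 and with the combination gave a second reading of compound #57 in the same lines, from libraries that share none with the first. Here the change from AZD8055 to the combination in MHCC97H was set against the mean of the same change in Hep3B and Huh7. Of the 101 higher genes, 99 (98%) were again higher in MHCC97H, and of the 124 lower genes, 119 (96%) were again lower. Over all 9709 genes, 52.2% were higher in this second reading, with a median difference of 0.02. The exceptions were ACVR2B and TJP3 among the higher genes and AREG, DPYD, GBP1, SDC4 and VWA7 among the lower ones. The median difference of the higher genes was 1.49 at first and 1.13 in the second reading, and that of the lower genes -1.52 and -1.04. Past the 2-fold limit in the second reading were 148 of 9883 genes on the higher side (1.5%) and 87 on the lower side (0.88%). Of these, 37 were among the 101 higher genes (36.6% of the 101 and 25% of the 148) and 34 among the 124 lower genes (27.4% of the 124 and 39.1% of the 87). Across 9709 genes, both readings had a Pearson's r of 0.638 and a Spearman's rho of 0.566. As each reading compares the same 3 lines at the same times, this repeats the measurement and does not part cell line from exposure time.

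In the second reading, limma called 1 of 11548 genes (0.00866%), INSIG1, and found 825 at an unadjusted p-value under 0.05, with the same estimate of the spread as before. INSIG1 stood at 246 with AZD8055 and 1313 with the combination in MHCC97H, 663 and 372 in Hep3B, and 1312 and 826 in Huh7. It was higher with compound #57 in MHCC97H and lower in both other lines, a difference of 3.16 (95% interval 2.54 to 3.79, adjusted p-value 0.0479 in limma). This call was lost with voom weights, without the trend in the variance and without the cell line term. The sterol genes as a group differed more than with compound #57 alone, with medians of 1.46 in MHCC97H against -0.41 in Hep3B and -0.01 in Huh7. MHCC97H was above both other lines in 23 of 25 genes, 23 of the 25 had an unadjusted p-value under 0.05 with a higher difference in limma, and the median difference was 1.64. HMGCS1 had 375 and 972 in MHCC97H, 7384 and 4980.5 in Hep3B, and 10893 and 11352 in Huh7. Mitotic genes likewise differed more, with medians of 0.23, -0.59 and -0.73, and MHCC97H was above both other lines in 34 of 34 genes, 29 of them at an unadjusted p-value under 0.05. Of all 9709 genes, MHCC97H was above both in 35.0% here, and 4.46% had such a p-value with a higher and 2.3% with a lower difference. The fatty acid genes had a median difference of 0.99 and the ER chaperones of 0.54.

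The ERK targets and the genes of ribosome biogenesis had smaller median differences once AZD8055 was present. The median difference of the ERK targets was 0.56 (0.26 with Huh7 alone as the reference), with medians of -0.73 in MHCC97H against -1.38 in Hep3B and -1.21 in Huh7. DUSP6 changed by -2.24, -3.21 and -2.15 in the same order, and ETV5 by -1.77, -3.10 and -1.73, so that MHCC97H and Huh7 were alike in both. EGR1 kept its gap, with 659 and 778 in MHCC97H, 1066 and 16.2 in Hep3B, and 64.8 and 9.46 in Huh7. PHLDA1 again moved in opposite directions, by -0.86 in MHCC97H against 0.52 in Hep3B and 0.36 in Huh7. The ribosome biogenesis list had a median difference of 0.18, which was 0.03 with Huh7 alone as the reference. The matrix and integrin list had -0.28, which turned to 0.07 with Huh7 alone. The YAP and TEAD targets, at -0.39, and the epithelial and mesenchymal genes, at -0.22 in the first reading, had 0.34 and 0.11 in the second, of opposite sign. For the YAP and TEAD targets the second value was 0.55 with Huh7 alone and 0.67 as a mean of the members, and for the epithelial and mesenchymal genes it was -0.12 with Hep3B alone. The interferon and antigen presentation list had a median difference of -0.29 at first and -0.07 here, with medians of 0.38, 0.28 and 0.44. In this reading MHCC97H was below both other lines in 7 of its 20 genes (35.0%, against 28.8% of all genes). CP stood apart in the second reading too, with 1571 and 6084 in MHCC97H, 2026 and 59.9 in Hep3B, and 1145 and 248 in Huh7, a difference of 5.58. IGFBP3 had a difference of 5.02. The change in these differences between the readings was not tested.

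**Figure D5:**
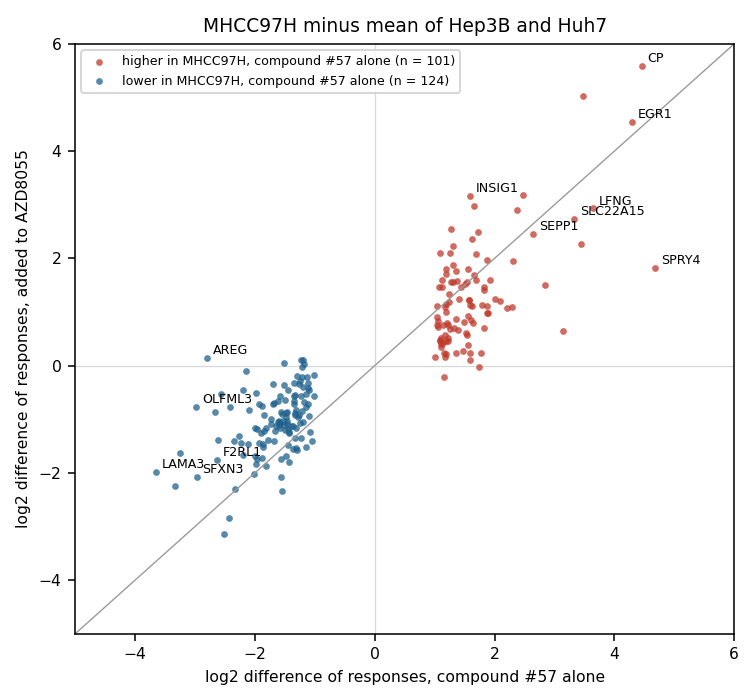
Difference of responses, MHCC97H minus the mean of Hep3B and Huh7, with compound #57 added to AZD8055 (vertical axis, log2) against that with compound #57 alone (horizontal axis, log2) for the 101 higher (red) and 124 lower (blue) genes, 1 point per gene. The line marks equal differences, and 99 red points lie above 0 and 119 blue points below 0 on the vertical axis, which did not enter the choice of genes.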

How the data were processed

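RNA sequencing of 3 cell lines under 4 treatments gave 12 libraries. The authors used poly(A) selection with a stranded kit, per the labels, aligned reads to hg38 (submitters' processing notes) and deposited 1 table of log2 values for 11548 genes. The aligner, counter and normalization are not given in the sources used here. The deposited log2 values equalled the log2 of reads per 10000000 plus 1, with 0.001 added to each. All values gave whole reads (tolerance 0.01 reads), with totals of 10667343 to 15968317, of which the table held 98.56% to 99.19%.

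The difference of responses was described for genes with at least 50 reads in the higher of both libraries of each line. The design assumed log2 values, and limma 3.58.1 (R 4.3.3, trend, two-sided, Benjamini-Hochberg) was used, tested first on simulated data. Within a line no p-value was computed, and Clopper-Pearson intervals at 95% cover counting error only. The libraries of 1 line form the pairs. GENCODE release 44 gave coordinates for 10620 genes (92%), and RefSeq (GRCh38.p14) promoters for 7523 of 9709 genes. 18 genes bore names turned into dates and 4 names stood on 2 lines. Python 3.11.15 was used.

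Named genes were the 10 of each direction with the largest smaller difference, genes called in the interaction (none), the 3 highest and lowest of each list described, PTPN11 and 9 ERK targets. Some genes are not reported here. Other names were chosen after their values were seen. The genes and lists were chosen with earlier results of these data known. Alternatives were a pseudocount of 10, centring on medians, 6 libraries, the 75% of genes with the highest mean, no cell line term, voom, no trend, minimums of 10 and 200 reads, folds of 1.5 and 3, the mean of a list, and a single reference line.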

Additional observations from a re-analysis of the deposited data

Results flagged for a closer look

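For the following genes, the log2-fold change with compound #57 had one sign in MHCC97H and the other in Hep3B and Huh7, both alone and when added to AZD8055. The counting interval of the change included 0 for SLC22A15 in MHCC97H in both settings and, with AZD8055, for LFNG in MHCC97H, OLFML3 in MHCC97H and Huh7, and LPXN in Hep3B, so that the direction is not shown there. The difference was not tested for this purpose, and none was called in limma. The differences of responses were 4.46 for CP, 3.65 for LFNG, 3.44 for C8orf4 and 3.33 for SLC22A15 on the higher side. On the lower side they were -3.33 for NDRG1, -2.98 for OLFML3, -2.97 for SFXN3, -2.63 for F2RL1, -2.27 for PHLDA1 and -2.24 for LPXN. Among the gene lists, the medians of MHCC97H and of both other lines had opposite signs for ATF4 targets, with a median difference of 0.11, DNA replication with 0.35, NRF2 targets with 0.27 and histones with 0.03. The last rests on 6 genes and turned to -0.04 with libraries centred on their medians, and for the ATF4 targets the medians of 0.12, -0.03 and -0.04 in MHCC97H, Hep3B and Huh7 all lie close to 0. Over all 9709 genes the median difference was also 0.11, and that of the ATF4 targets was 0.00 with Hep3B alone as the reference. MHCC97H was above both other lines in 46.9% of the ATF4 targets, against 48.7% of all genes. The median of the NRF2 targets in Huh7 was -0.01, and their median difference was 0.14 with Huh7 alone as the reference and 0.12 as a mean. These differences were not tested either.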

How the results depend on the processing

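limma called 0 genes with compound #57 alone under every alternative run, with 107 (no replicate block, that is no cell line term) to 1106 genes (6 libraries) at an unadjusted p-value under 0.05. With compound #57 added to AZD8055, its 1 call became 0 without the replicate block, with voom and without the trend. The counts past the 2-fold limit, 101 higher and 124 lower, were 83 and 109 with a pseudocount of 10, and 77 and 142 with centred libraries, a larger share of lower genes. They were 161 and 219 at a minimum of 10 reads, 65 and 66 at 200 reads, 466 and 403 at 1.5-fold, 20 and 26 at 3-fold, 336 and 397 without Huh7, and 174 and 188 without Hep3B. The median difference of the ERK targets was 0.46 without Hep3B. That of the cholesterol genes was 0.51 with a pseudocount of 10, 0.57 centred, 0.58 as a mean and 0.59 without Huh7. Of 112 values of 28 named genes, 3 changed sign, those of EPHA2 (-0.04 centred, -0.01 against Huh7 alone) and CCND1 (-0.26 against Huh7 alone). The causes of these shifts were not tested. With 1 library per line and treatment, neither the spread between cultures nor the part of exposure time is known. For genes with under 50 reads in both libraries of a line, the difference of responses was not described. Among them were most plasma proteins in MHCC97H.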

Other observations

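Hepatocyte markers that are high in Hep3B and Huh7 were low in MHCC97H, and several were higher with compound #57 in every line. ALB stood at 303 and 732 in MHCC97H, 210935 and 402282 in Hep3B, and 40721 and 76438 in Huh7. FGB, a chain of fibrinogen, had 191 and 1024, 1895 and 23976, and 14089 and 25587 in the same order. TF, the iron carrier transferrin, was higher as well, with 36.1 and 85.1 in MHCC97H, 30705 and 58009.8 in Hep3B, and 23736 and 31232 in Huh7. APOB went the other way in Hep3B (82179 and 37610.0) and Huh7 (60737 and 36690.2) and was close to its untreated level in MHCC97H (239.5 and 273). LYZ, which codes for lysozyme, was on the list of markers of other cell types. It was lower with compound #57 in Hep3B (1139.9 and 68.5) and Huh7 (7512 and 1463) and was at 0.768 in untreated MHCC97H, a single read.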
